A study of Sus scrofa with 12 samples.

Results

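NELL1, CTHRC1, PAMR1 and NBL1 were the 4 genes of the 20674 in the deposited table that passed an adjusted p-value under 0.05 and an absolute log2 fold change above 1 between the high-fiber (HF) and low-fiber (LF) diets in sow endometrium. They were chosen on that difference, pooled over the groups with and without N-carbamylglutamate (NCG), so their fiber effect is described here and not tested. The libraries came from Landrace × Yorkshire sows of like parity that were fed 1 of 4 diets over 114 days of gestation, after which 6 sows per group were euthanized. L − N was the low-fiber diet (3.73% crude fiber) without NCG, L + N the same diet with 0.05% NCG, H − N the high-fiber diet (7.46% crude fiber) without NCG, and H + N the high-fiber diet with 0.05% NCG. NCG is an analog of N-acetylglutamate, the activator of the first step of the urea cycle, and zeolite powder took its place in the diets without it. The high-fiber diets held soybean bran, beet pulp and soybean oil in place of part of the corn, and fiber cannot be told apart from these ingredients. Each group had 3 libraries of poly(A) RNA, so the 2 high-fiber and the 2 low-fiber groups together gave 6 libraries against 6. The labels number the libraries within a group and do not say which sow each came from. In bulk endometrium, fewer cells of a type and less RNA per cell cannot be told apart.

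All 4 genes encode secreted proteins of the extracellular space. NELL1 is a large glycoprotein with EGF-like repeats, known for promoting bone formation, and it binds receptors at the cell surface, integrins among them. CTHRC1 carries a short collagen-like repeat, is made by activated fibroblasts and favors the planar polarity branch of Wnt signaling through Frizzled receptors. PAMR1 carries CUB, EGF-like and Sushi domains and a trypsin-like domain. NBL1, also known as DAN, is the founding member of the DAN family, which binds bone morphogenetic proteins (BMPs) outside the cell and keeps them from their receptors. BMP and Wnt signals pass between the stroma and the epithelium of the uterus and shape it through implantation and pregnancy.

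The genes lie at separate places of the pig assembly Sscrofa11.1. NELL1 (gene identifier 100520718) spans chromosome 2, 37809080 to 38754520, on the minus strand. PAMR1 (gene identifier 100626770) lies on the same chromosome, 25422390 to 25591615, on the plus strand. CTHRC1 (gene identifier 100152510) lies on chromosome 4, 33759541 to 33771625, on the minus strand, and NBL1 (gene identifier 100623582) on chromosome 6, 78046084 to 78071609, on the plus strand. The deposited annotation places NBL1 in the TGF-beta signaling pathway and links CTHRC1 to the Wnt planar polarity pathway, to Frizzled binding and to osteoblast differentiation. It gives PAMR1 serine-type endopeptidase activity and NELL1 heparin and protein kinase C binding.

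The total count ranged from 14369781 to 19309724 per library, and 15351 genes passed the filter on low counts, among them all 4 genes. Markers of uterine identity (ESR1, PGR, HOXA10, HOXA11, FOXA2, HAND2, NR2F2 and MUC1) were all above the filter, with a summed level of 945.7 to 2365 CPM (counts scaled to library size with TMM factors) per library. Between HF and LF, 5 of these 8 (62.5%) were higher by an unadjusted p under 0.05, where 9.3% of all genes tested were, and 0 passed the adjusted test by edgeR or DESeq2. Of the trophoblast markers, CYP19A1 was at 0 in all libraries and HAND1 and PLET1 had at most 4 and 6 reads in a library, while GATA3, TFAP2C, ELF5 and PEG10 were above the filter. L − N replicate 1 stood apart from the other L − N libraries, at −22.6 on the first principal component of all 12 libraries against −67.2 and −65.5, and values without it are given where it decides a result.

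NELL1 was the gene that was higher on the high-fiber diets. It stood at 0.891, 0.564 and 1.61 CPM in the L − N libraries and at 1.31, 6.70 and 4.51 in L + N. The H − N libraries had 72.3, 35.4 and 21.0 CPM and the H + N libraries 21.8, 8.04 and 35.01. Every high-fiber library was above every low-fiber library, by a narrow margin between L + N replicate 2 (6.70) and H + N replicate 2 (8.04). The low-fiber values rest on few reads, down to 9 in L − N replicate 2, where the exact Poisson 95% interval of 4.12 to 17.1 reads covers counting error only. On low fiber the group means were 1.02 ± 0.536 CPM without and 4.17 ± 2.71 with NCG, and on high fiber 42.9 ± 26.5 without and 21.6 ± 13.5 with NCG (SD, n = 3 for each mean). In this order of levels the libraries of L − N and L + N overlapped, as did those of H + N and H − N. The fitted log2 fold change of HF against LF was 3.88 (standard error, SE, 0.521), which is 14.8-fold higher. Per length, the mean level of NELL1 was 0.758 FPKM in LF, above 13.3% of the genes tested, and 9.23 FPKM in HF, above 58.1% of them.

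CTHRC1 was the gene of the 4 whose groups were all apart. The L − N libraries had 12.5, 35.9 and 17.5 CPM, and the L + N libraries 5.34, 5.65 and 4.45. The H + N libraries had 1.91, 3.31 and 1.84 CPM, and the H − N libraries 1.09, 0.902 and 1.24. No library of a group reached into the range of the next group, with L − N highest, then L + N, then H + N, and H − N lowest. The share of all genes tested whose 4 groups were apart was not counted. For single pairs of groups, 17.2% were lower in all L + N than in all L − N libraries. Between H − N and H + N, 13% did not overlap in either direction. The spread was widest in L − N, where the highest library was 2.86 times the lowest, and narrow in L + N and H − N, where that ratio was 1.27 and 1.38. Per length, CTHRC1 ranked above 61.1% of the genes tested in LF and above 19.4% of them in HF. The fitted log2 fold change of HF against LF was −2.73 (SE 0.285), which is 6.64-fold lower. Its mean level per length was 10.2 FPKM in LF and 1.34 FPKM in HF. The H − N values come from 21, 13 and 18 reads.

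PAMR1 was the most abundant of the 4 genes per length in LF, with 74.3 ± 20.6 FPKM (SD, n = 6), above 95.2% of the genes tested. The low-fiber libraries had 317, 443 and 353 CPM without and 187, 260 and 208 with NCG. The high-fiber libraries had 28.8, 53.7 and 72.3 CPM without and 84.0, 125 and 39.6 with NCG. The low-fiber and high-fiber libraries did not overlap, nor did L − N and L + N, while H − N and H + N did. The fitted log2 fold change of HF against LF was −2.12 (SE 0.282), which is 4.35-fold lower. PAMR1 overlaps FJX1, a gene on the opposite strand, over 1160 bp. FJX1 had a mean of 24.3 CPM in HF against 59.6 in LF and a log2 fold change of −1.20 (SE 0.203, adjusted p = 0.0576 by edgeR), and did not pass. Because the strand used in counting is not given in the sources used here, reads from the shared stretch cannot be told apart. The other neighbor genes had values nearer to 0, with log2 fold changes of −0.02 for TRIM44 and −0.44 for SLC1A2, neither of which passed.

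NBL1 did not follow fiber in the same manner. The low-fiber libraries had 212, 358 and 352 CPM without and 112, 90.2 and 109 with NCG. The high-fiber libraries had 75.6, 85.5 and 73.2 CPM without and 80.9, 124 and 91.4 with NCG. The L − N libraries were above all others, and the L + N and H + N libraries lay in the same range. The share of all genes tested with L − N above all others was not counted. L − N also stood apart on the first principal component of all genes tested, at −67.2 to −22.6 against 1.06 to 28.2 for the other groups. A difference of L − N from the other groups was thus not particular to NBL1. With NCG the mean was 104 ± 11.7 CPM on low and 98.8 ± 22.6 on high fiber, against 307 ± 82.5 for L − N (SD, 3 libraries for each mean). With NCG in both diets, the log2 fold change of high against low fiber was −0.07 (SE 0.210, 95% interval −0.527 to 0.394), while without NCG it was −1.97 (SE 0.217). Its pooled log2 fold change of −1.02 (SE 0.150) is the mean of these values, so NBL1 separated L − N from the other 3 groups rather than high from low fiber. MINOS1, the gene that ends 0.165 kb before NBL1 on the same strand, had a log2 fold change of 0.06 between HF and LF.

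**Figure D1:**
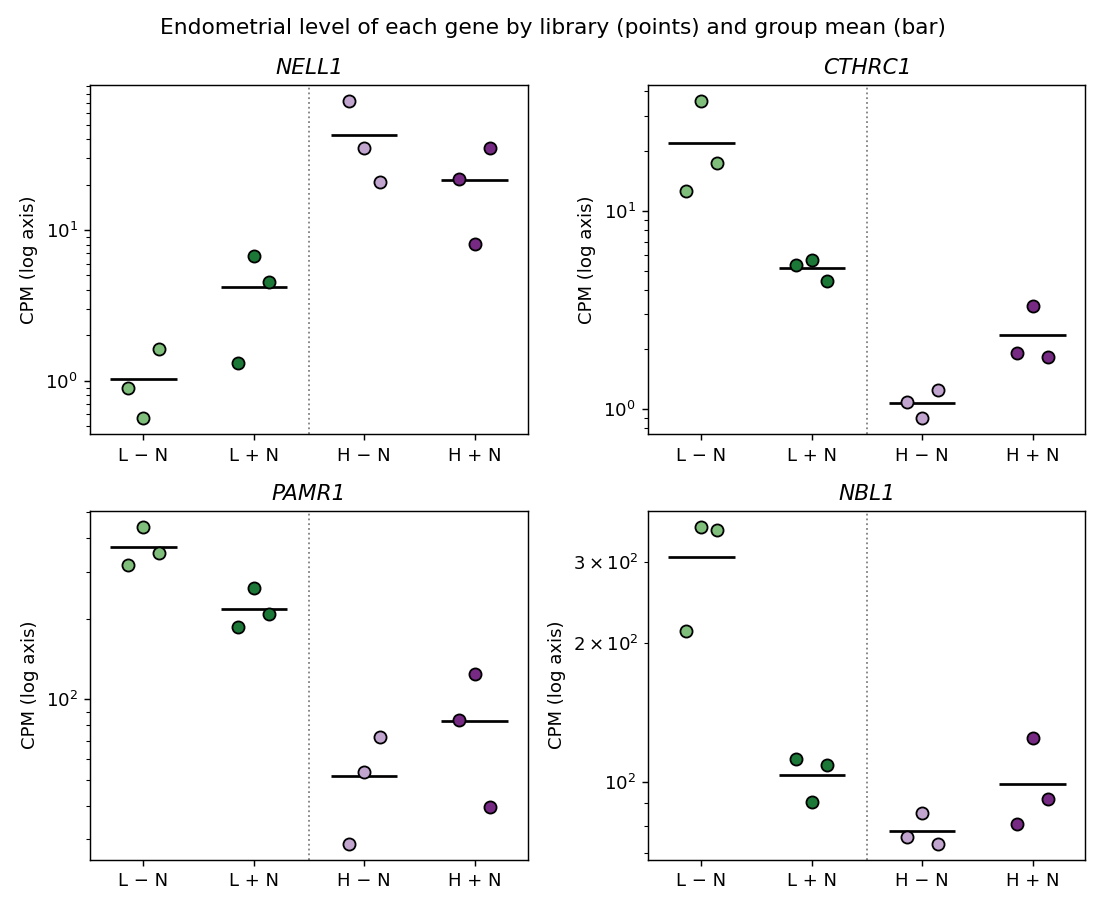
Level of each gene in CPM on a log axis, with 1 point per library and a bar at the mean of each group of 3, low-fiber groups left of the dotted line. NELL1, CTHRC1 and PAMR1 did not overlap between the diets, while NBL1 was high in L − N alone, with L + N at 90.2 to 112 CPM and H + N at 80.9 to 124 CPM.

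For NELL1, CTHRC1 and PAMR1 all high-fiber libraries were on 1 side of all low-fiber libraries. Over all genes tested, 0.482% lay wholly higher and 0.404% wholly lower in HF, and since the genes were chosen on this contrast the count is a description. The thresholds on adjusted p and fold change that chose the 4 genes were passed by 0.0261% of the genes tested. The value just inside was that of NBL1, with an adjusted p of 0.0487 by edgeR. Just outside were NTRK2, a neurotrophin receptor, with a log2 fold change of 1.27 (SE 0.192, adjusted p = 0.0520 by edgeR), and HAPLN4, a link protein of hyaluronan, with −1.89 (SE 0.303, adjusted p = 0.0576 by edgeR). VIM, RGS5, EDN1 and SLC6A6 passed on the p-value and fell short on the fold change, with log2 fold changes between −0.98 and −0.76. The choice of genes depended on single libraries, since with 1 library left out at a time all 4 genes passed in 2 of 12 fits, 3 in 1 fit, CTHRC1 alone in 4 and none in 5, while their log2 fold changes kept their signs in all 12.

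The estimated fiber effect was farther from 0 without NCG than with it for all 4 genes. Over all genes tested, edgeR called 446 (2.91%) between the diets without NCG and 0 (0%) with NCG in both. At an unadjusted p under 0.05 the shares were 24.4% and 4.68%. Fewer differences between the diets with NCG were thus a trait of the whole table. Without NCG, the log2 fold change between the diets was 5.39 for NELL1 (SE 0.796), −4.34 for CTHRC1 (SE 0.429), −2.85 for PAMR1 (SE 0.411) and −1.97 for NBL1. With NCG in both diets it was 2.38 for NELL1 (SE 0.674), −1.12 for CTHRC1 (SE 0.383) and −1.40 for PAMR1 (SE 0.390). These values share no library, but both enter the contrast on which the genes were chosen. The difference between them is the interaction of fiber and NCG, which that contrast does not determine. It shares the estimate of the spread with that contrast, so its p-values for these genes may be too small. The interaction was −3.01 on the log2 scale for NELL1 (SE 0.988, adjusted p = 0.293 by edgeR), 3.22 for CTHRC1 (SE 0.556, adjusted p = 0.182 by edgeR), 1.45 for PAMR1 (SE 0.546, adjusted p = 0.322 by edgeR) and 1.91 for NBL1 (SE 0.299, adjusted p = 0.182 by edgeR). None passed after adjustment over 15351 genes, of which edgeR called 0 (0%), with 12.8% at an unadjusted p under 0.05. DESeq2 called 184 genes, with CTHRC1 (adjusted p = 0.000112) and NBL1 (adjusted p = 1.17e-05) among them. Without L − N replicate 1 edgeR called both as well, at an adjusted p of 0.00843 for CTHRC1 and 0.00499 for NBL1.

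**Figure D2:**
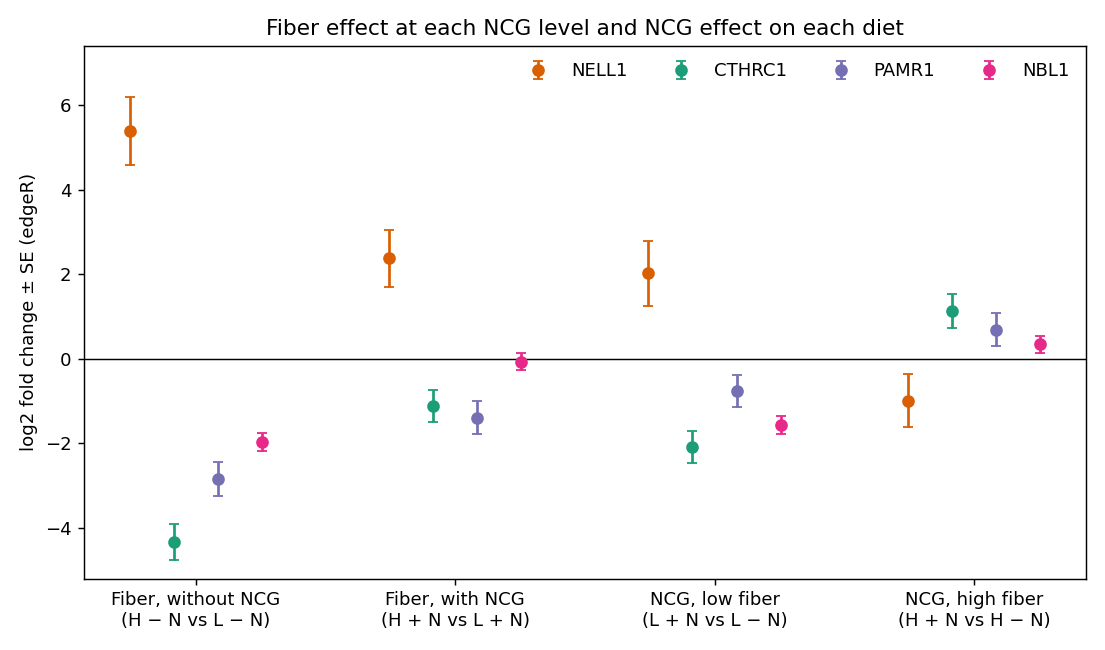
Log2 fold change of each gene with its standard error for high against low fiber at each NCG level and for NCG on each diet, from the edgeR fit. For every gene shown the fiber effect with NCG lay nearer to 0 than without it. Over all genes tested, edgeR called 446 between the diets without NCG and 0 with NCG in both. The NCG effect had opposite signs on the 2 diets, for example −2.09 on low and 1.13 on high fiber for CTHRC1. On high fiber no NCG effect shown passed (adjusted p from 0.509 to 0.676 by edgeR). How many of all genes tested had opposite signs was not counted.

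On the low-fiber diet, the values with NCG lay on the high-fiber side for all 4 genes, and the test was passed by CTHRC1 and NBL1. The share of all genes tested that lay on their high-fiber side here was not counted. On the first principal component of all genes tested, L + N lay at 1.06 to 14.9 and the high-fiber libraries at 14.8 to 28.2. L − N lay at −67.2 to −22.6 there, so a shift to the high-fiber side was not particular to the 4 genes. CTHRC1 was lower with NCG, with a log2 fold change of −2.09 (SE 0.377, adjusted p = 0.0110 by edgeR), and so was NBL1, with −1.57 (SE 0.214, adjusted p = 0.00818 by edgeR). Both were lower in 3 of 3 L + N libraries than in any L − N library. The values for NELL1 (2.02, SE 0.761, adjusted p = 0.114 by edgeR) and PAMR1 (−0.77, SE 0.384, 95% interval −1.61 to 0.0776, adjusted p = 0.2201 by edgeR) did not pass. Thus 2 of the 4 genes were called lower, where edgeR called 0.671% of all genes tested lower and 3.99% in either direction. PAMR1 was also lower in all L + N than in all L − N libraries, as 17.2% of all genes tested were. CTHRC1 and NBL1 passed in all 12 fits that each left out 1 library, with adjusted p-values up to 0.0475 and 0.0440. This comparison uses the L − N libraries, which the choice of genes also used. Its contrast is orthogonal to that of fiber only where the groups have equal spread. The SD was 56.0% of the mean in L − N and 12.1% in L + N for CTHRC1, and 26.9% and 11.3% for NBL1. The estimate of the spread is shared, and the choice favors genes where it is small. These p-values may therefore be too small, and the 2 of 4 is a description.

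On the high-fiber diet, the values with NCG pointed the other way for each of the 4 genes and did not pass. How many of all genes tested had opposite signs on the diets was not counted, so these directions are a description. The log2 difference between H + N and H − N was 1.13 for CTHRC1 (SE 0.411, 95% interval 0.225 to 2.03, adjusted p = 0.509 by edgeR), −0.99 for NELL1 (SE 0.629, adjusted p = 0.676 by edgeR), 0.68 for PAMR1 (SE 0.387, adjusted p = 0.632 by edgeR) and 0.34 for NBL1 (SE 0.210, adjusted p = 0.663 by edgeR). Single libraries moved these values, to −0.38 for NELL1 without H − N replicate 1 and −1.53 without H + N replicate 3, and to 0.27 for PAMR1 and 0.14 for NBL1 without H + N replicate 2. By edgeR 0 genes of the whole table were called in this comparison, with 8.67% at an unadjusted p under 0.05, and by DESeq2 25. CTHRC1 was the gene of the 4 whose H + N libraries were all above its H − N libraries, and 13% of all genes tested did not overlap there in either direction. Averaged over both diets, the log2 fold change with NCG was −0.61 for NBL1 (SE 0.149, adjusted p = 0.0323 by edgeR), short of the fold change threshold, while 7.27% of all genes tested had an adjusted p under 0.05. With 1 library left out at a time, the adjusted p of NBL1 by edgeR was between 0.0112 and 0.0824 and missed 0.05 in 9 of 12 fits. The averaged value was −0.48 for CTHRC1, −0.04 for PAMR1 and 0.51 for NELL1, with adjusted p-values of 0.324, 0.945 and 0.559 by edgeR, where 1.8% of all genes tested were called.

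**Figure D3:**
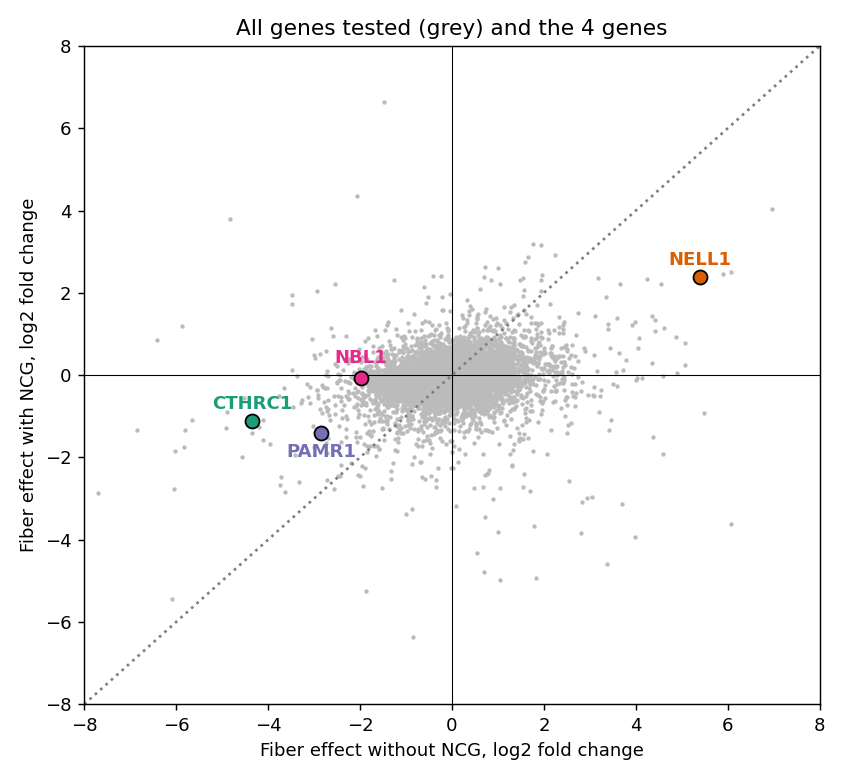
Each grey point is 1 gene tested, with the log2 fold change between the diets without NCG on the horizontal and with NCG on the vertical axis, the dotted line marking equal values (1 gene lies outside the axes). NELL1, CTHRC1 and PAMR1 lay away from 0 on both axes, and NBL1 lay at −1.97 on the horizontal and −0.07 on the vertical axis.

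Relative to the basal group L − N, the log2 value for H + N was 4.40 for NELL1, −3.21 for CTHRC1, −2.16 for PAMR1 and −1.64 for NBL1. These stand beside 5.39, −4.34, −2.85 and −1.97 for H − N and 2.02, −2.09, −0.77 and −1.57 for L + N, all 3 comparisons sharing the L − N libraries.

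The BMP pathway around NBL1 was followed through a list of other antagonists, ligands, receptors and targets. Of the other antagonists, 10 of 15 were above the filter, and 0 passed the thresholds between HF and LF. By unadjusted p under 0.05, 0 were higher and 1 lower, which was CHRD (log2 fold change −0.33, SE 0.106). Of all genes tested, 10.2% were lower by that measure. GREM1, an antagonist of the same DAN family, had a mean of 70.0 CPM in LF and 53.6 in HF, a log2 fold change of −0.45 (SE 0.540) that did not pass, and CHRDL1 one of 0.72 (SE 0.425). Of the 8 BMP ligands tested, 0 passed, with log2 fold changes of −0.44 for BMP2, −0.05 for BMP4, 0.81 for GDF7, −1.68 for BMP5 and 1.33 for GDF10. Of the 10 receptors and SMAD proteins 0 passed, with a median log2 fold change of −0.00384. DESeq2 also called 0 genes in these 3 lists and 0 in the list of BMP targets.

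Of 10 genes known as BMP targets, 9 had higher values in HF, with a median log2 fold change of 0.41 against 0.02 over all genes tested. None (0 of 10) passed the adjusted test by edgeR, and 5 had an unadjusted p under 0.05, all higher, where 9.3% of all genes tested were higher by that measure. Those were HEY1 (log2 fold change 0.61, SE 0.185), MSX1 (0.61, SE 0.217), MSX2 (0.59, SE 0.214), ID1 (0.44, SE 0.136) and ID2 (0.40, SE 0.141). ID1 and ID2 encode inhibitors of DNA binding and MSX1 and MSX2 homeobox factors of the uterine epithelium. The lowest value was that of BAMBI, at −0.14. Over the fits that left out 1 library each, the median of the list stayed between 0.30 and 0.51 and the number at an unadjusted p under 0.05 between 3 and 7.

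Around CTHRC1, 21 of 22 genes of the Wnt planar polarity branch were tested, and 0 passed between HF and LF. The median log2 fold change was −0.04, with 2 genes higher and 0 lower by unadjusted p under 0.05, namely DAAM1 (0.83, SE 0.327) and the receptor FZD5 (0.52, SE 0.159). These 2 were 9.52% of the list, near the 9.3% of all genes tested that were higher by that measure. The lowest values were −0.49 for CELSR3 and −0.37 for WNT11. FZD6, the Frizzled gene that lies 39.5 kb from CTHRC1 on the same strand, had a log2 fold change of −0.17 (SE 0.101), ROR2 one of 0.06 and WNT5A one of 0.20, and SLC25A32 on the other side of CTHRC1 one of 0.10. DESeq2 called 0 genes of this list as well.

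Genes that activated fibroblasts express with CTHRC1 split into 2 directions. Of 18 tested, 0 passed, and by unadjusted p under 0.05 there were 3 higher and 6 lower in HF, where 19.5% of all genes tested had such a p. The 3 on the higher side were fibrillar collagens, with log2 fold changes of 0.77 for COL1A1 (SE 0.271), 0.70 for COL3A1 (SE 0.217) and 0.69 for COL5A1. POSTN, which encodes the matrix protein periostin, had −1.29 (SE 0.390) and SFRP4, a secreted Wnt inhibitor, −1.26 (SE 0.265), and TGFB1, TGFB2, THY1 and FN1 were the others at an unadjusted p under 0.05 on the lower side. In the pooled fiber contrast CTHRC1 therefore lay with POSTN and SFRP4 in sign and against the collagens. With NCG, POSTN and CTHRC1 went in opposite directions. Averaged over both diets, the log2 value was 1.23 for POSTN (adjusted p = 0.0822 by edgeR), −0.48 for CTHRC1 and −0.03 for SFRP4, and none passed. On low fiber the mean of POSTN was 28.1 CPM without and 61.3 with NCG, where CTHRC1 was lower with NCG. Between HF and LF, DESeq2 called 2 of the 18, both lower, where it called 290 genes of the whole table. The median of the list was −0.22, and without L − N replicate 1 it was −0.06. In that fit 1 gene of the list was called, on the lower side, and 331 of the whole table.

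NELL2, the paralog of NELL1, had a different pattern over the groups. On low fiber its mean level was 13.4 CPM without and 164 with NCG, and on high fiber 152 without and 140 with NCG, so that it was low in L − N alone, where NELL1 was low in both low-fiber groups. Between HF and LF the log2 fold change of NELL2 was 1.64 (SE 0.403, adjusted p = 0.0900 by edgeR), which did not pass. Averaged over both diets, the NCG contrast was passed by NELL2, with a log2 value of 1.75 (adjusted p = 0.0264 by edgeR). NELL2 was higher with NCG on low fiber, with 3.61 (SE 0.617, adjusted p = 0.00899 by edgeR), and had −0.11 (SE 0.550, adjusted p = 0.973 by edgeR) on high fiber. The receptor gene ROBO2 passed the averaged contrast too, with 1.02 (adjusted p = 0.0108 by edgeR), with 1.29 on low fiber and 0.74 on high fiber (adjusted p = 0.0150 and 0.479 by edgeR). They were 2 of the 13 genes tested of this list, and 1.67% of all genes tested were called higher with NCG. In HF against LF, 0 of the 13 passed by edgeR and 1 by DESeq2, which called 290 genes of the whole table. The edgeR values were −0.01 for ROBO3, −0.03 for ATRAID, −0.40 for RUNX2, −0.90 for CNTNAP4, −0.88 for SPP1 and 0.49 for ROBO2. ANO5 and SLC6A5, the genes on either side of NELL1, had a log2 fold change of 0.67 (SE 0.583) and at most 3 reads in a library. Among 12 tested genes for CUB-domain proteases and related proteins, the kin of PAMR1, 0 passed between HF and LF, with a median of −0.02 and values of 0.95 for TNFAIP6, 0.80 for TLL2, −0.50 for NRP2 and −0.50 for MASP1, while C1R and C1S, complement proteases with CUB domains, had 0.05 and 0.11. DESeq2 called 0 of these 12.

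**Figure D4:**
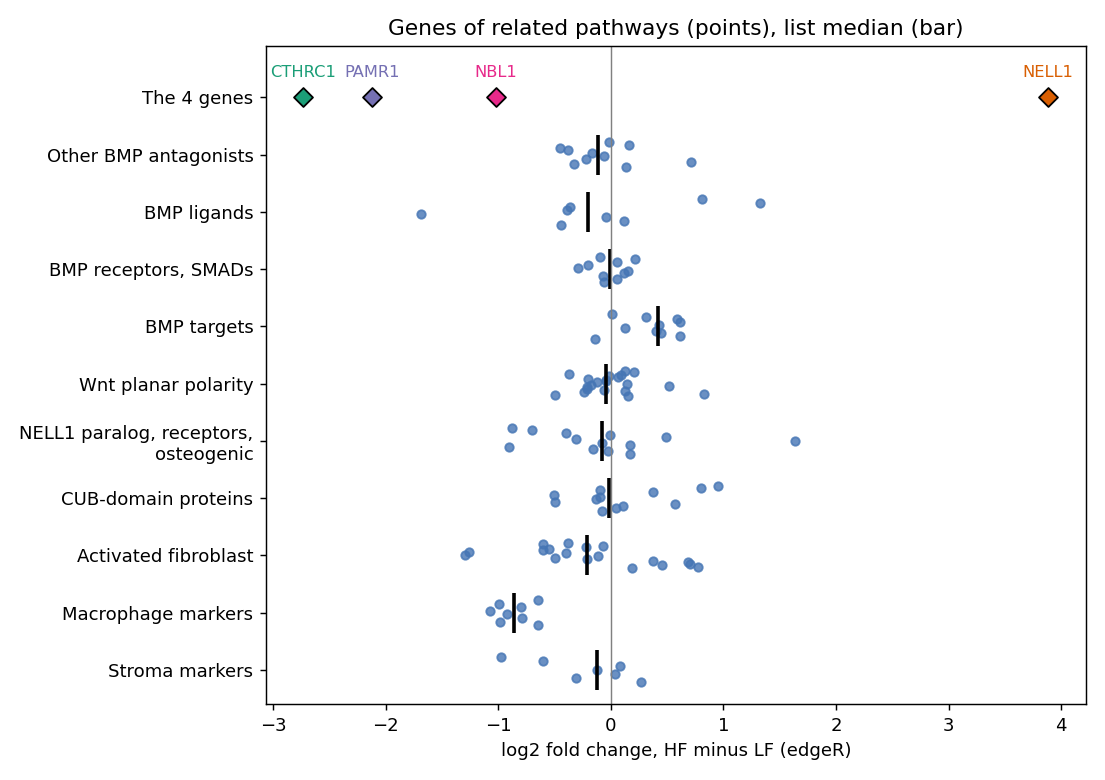
Log2 fold change of HF minus LF for the 4 genes (diamonds) and for each tested gene of the related lists (points), with a bar at the median of each list. Points of the BMP target list lay mostly above 0 (median 0.41), the activated fibroblast genes on both sides, and all 8 macrophage markers below 0 (median −0.86).

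Markers of cell types moved with the diets as well. All 8 macrophage markers (CD68, CD163, CSF1R, MRC1, AIF1, C1QA, C1QB and C1QC) had lower values in HF, each at an unadjusted p under 0.05 and 0 at an adjusted p under 0.05 by edgeR, with a median log2 fold change of −0.86 against 10.2% of all genes tested lower by the unadjusted measure. Without L − N replicate 1, 5 of the 8 passed, where 331 genes of the whole table did. With DESeq2 1 of the 8 passed, where 290 genes of the whole table did. Their summed level on low fiber ran from 1358 to 3537 CPM without and from 1150 to 1629 with NCG, and on high fiber from 699 to 1013 without and from 1103 to 1389 with NCG, and none was at 0. L − N replicate 1 had the lowest sum of its group (1358) and also the lowest NBL1, CTHRC1 and PAMR1 of its group. Its NELL1 (0.891 CPM) lay between 0.564 and 1.61. The same library had the highest smooth muscle sum of its group (5604 CPM against 1767 and 2206). Its endothelial sum was also the highest there (1665 against 1142 and 1399). The sum of the stroma markers ran from 8629 to 11860 CPM in LF and from 7329 to 10700 in HF, and by an unadjusted p under 0.05, 0 of 7 were higher and 3 lower. Those were VIM (log2 fold change −0.98, SE 0.132, adjusted p = 0.0343 by edgeR), THY1 (−0.60, SE 0.204) and DCN (−0.31, SE 0.132), while the other 4 lay between −0.12 for PDGFRA and 0.27 for COL6A3. By unadjusted p under 0.05 between HF and LF, 2 of 8 epithelial markers were higher, 0 of 8 smooth muscle and 0 of 7 endothelial markers were higher or lower, and 1 of 8 T and NK cell markers (NKG7, −0.65) was lower. Of all genes tested, 9.3% were higher and 10.2% lower by that measure. All 8 smooth muscle markers had lower values in HF (median −0.31), 3 of them at an unadjusted p under 0.05 without L − N replicate 2. Without L − N replicate 1 their median was 0.05. By the same measure 1 of 6 neutrophil markers (MMP8, 2.28) and 1 of 5 plasma cell markers (XBP1, 0.30) were higher, and 0 of 3 erythroid markers were higher or lower. Single libraries decided some of these counts, since without H − N replicate 3 there were 5 of 6 neutrophil markers lower and 1 higher (median −2.33 against −0.57 with all libraries), and without L − N replicate 2 there were 5 of 8 T and NK cell markers higher and 0 lower. Of 5 tested genes of the trophoblast list, ELF5 (1.12, SE 0.290) and PEG10 (0.85, SE 0.294) were higher by that measure. PAG1 was lower (−0.48) and is not a pregnancy-associated glycoprotein in this annotation. DESeq2 called 1 neutrophil and 1 trophoblast marker between HF and LF, both higher. Without L − N replicate 1, edgeR also called 1 trophoblast marker higher. The part of these cell types in the values of the 4 genes was not tested.

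The genes whose log2 CPM followed each gene most closely over the 12 libraries were named from the whole table, and are a description. For NELL1 they were IMPDH2, MAGEF1 and NTRK2, with Pearson r from 0.927 to 0.933. For CTHRC1 they were TMEM63B (r = 0.974), HAPLN4 and ASL, the urea cycle enzyme argininosuccinate lyase. For PAMR1 they were PTPN21, TUBB2B and PTPRK (r from 0.923 to 0.925), and for NBL1 CTNS, the cystine transporter of the lysosome (r = 0.975), PLEKHO1 and the integrin ITGB5. The 12 libraries share the diet groups. After the group means were subtracted, the closest genes were other ones, HUS1, TMEM9B and UBL5 for NELL1, EXOC2, PROSER1 and SLC1A1 for CTHRC1, DYDC1, TANC2 and UBE2G1 for PAMR1, and MPP1, SLC2A6 and PTPN18 for NBL1. No gene was on both lists of the same gene.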

How the data were processed

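Endometrial poly(A) RNA of 12 libraries, 3 per group, was analysed, and groups were taken from the titles of the libraries. The authors deposited 1 table with a read count per gene and library, without normalization, and an FPKM value that they made from count, gene length and library total. The submitters' processing notes name fastp 0.22.0, HISAT2 2.1.0, HTSeq 0.9.1 and the build Sscrofa11.1, and the strand used in counting is not given in the sources used here. The libraries were described as strand-specific. All 20674 genes were found in the RefSeq annotation of that build.

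Counts were analysed in R 4.3.3 with edgeR 4.0.16. Genes were kept by filterByExpr, scaled by TMM and fitted with 1 mean per group by the quasi-likelihood method over all 12 libraries (8 residual degrees of freedom), with Benjamini-Hochberg adjustment over 15351 genes. Standard errors were the log2 fold change divided by the root of the F statistic. A gene was called at an adjusted p-value under 0.05 and an absolute log2 fold change above 1. DESeq2 1.42.0, RLE scaling, no filter, a replicate block and leaving out libraries were alternatives. Log2 CPM used a prior count of 2. FPKM was used to compare levels between genes, and the other values are CPM. The depth was similar between libraries, and the spread between replicates (biological coefficient of variation 0.270) and not counting error limits the precision of all but the lowest counts. Replicate pairs differed by a chi-square of 23.3 to 99.8 per gene, so none was a repeated library. P-values set the difference between groups against the spread between libraries of the same group. The labels do not say whether that is a spread between sows.

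The 4 genes, the gene lists (written from general knowledge), the tests and the rule for named genes were chosen with earlier results of these data known. The rule takes the 4 genes, their 3 closest genes by correlation over libraries before and after subtracting group means, their neighbors, the genes at the edge of the thresholds, and from each list the genes with the highest and lowest values and direct partners. Genes beyond this rule (such as those at an unadjusted p under 0.05, NELL2 and ROBO2 with NCG, and single markers) were named after their values were seen. The trophoblast list had few usable markers, since PAG1 in this annotation is another gene. The fits were tested on simulated counts.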

Additional observations from a re-analysis of the deposited data

How the results depend on the processing

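Leaving out 1 library at a time, the log2 fold change of HF against LF stayed between 3.58 and 4.14 for NELL1, between −2.91 and −2.46 for CTHRC1, between −2.35 and −1.95 for PAMR1 and between −1.13 and −0.96 for NBL1. NCG on the low-fiber diet ranged from −2.37 to −1.54 for CTHRC1 and from −1.78 to −1.45 for NBL1, the values nearest to 0 being those without L − N replicate 2. The effect of NCG over both diets on PAMR1 ranged from −0.24 to 0.13 and so changed sign in 4 of 12 fits, while that on NELL1 ranged from 0.24 to 0.82, on CTHRC1 from −0.64 to −0.21 and on NBL1 from −0.72 to −0.55. NCG on the high-fiber diet ranged from −1.53 to −0.38 for NELL1, from 0.79 to 1.28 for CTHRC1, from 0.27 to 1.02 for PAMR1 and from 0.14 to 0.45 for NBL1. The interaction ranged from 2.67 to 3.50 for CTHRC1 and from 1.70 to 2.12 for NBL1, and both passed in 1 of 12 fits, without L − N replicate 1. The number of genes called between HF and LF ran from 0 to 331, the highest without L − N replicate 1, that for NCG over both diets from 157 to 340, that for the interaction from 0 to 346 and that for NCG on the low-fiber diet from 143 (without L − N replicate 3) to 911 (without L − N replicate 1).

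With DESeq2, 290 genes were called between HF and LF, 184 for the interaction and 25 for NCG on the high-fiber diet. The interaction passed for CTHRC1 (3.23) and NBL1 (1.92), and NCG on the low-fiber diet passed for NELL1 (2.02, DESeq2's adjusted p = 0.0209). The causes were not tested. With the replicate block, 1 gene (CTHRC1) was called between HF and LF, with −2.69, so that NELL1, PAMR1 and NBL1 no longer passed there, and the calls on the 4 genes for NCG and the interaction did not change. The labels do not say whether the numbers pair the libraries. Of 18 pairs of libraries with the same number, 3 had deviations from their group means that correlated above 0.1. The r ran from −0.322 to 0.283, which does not settle whether they were paired. RLE moved the median of all genes by −0.0112 on the log2 scale. Of the tested values of the 4 genes under the alternatives other than leaving out a library, 69 kept their direction and side of the threshold and the 3 with DESeq2 given here passed it newly. The fits of the gene lists under DESeq2, RLE and without single libraries were chosen after seeing the data. Low counts limit NELL1 in the low-fiber and CTHRC1 in the high-fiber libraries.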
